A study of Mus musculus with 3 samples.

Results

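The genes described here are 10 mouse genes of antigen presentation by the major histocompatibility complex (MHC). They were taken by gene symbol, and the set was chosen with earlier results of these data known. H2-Aa, H2-Ab1, H2-Eb1 and Cd74 belong to the class II pathway, and H2-K1, H2-D1, B2m, Tap1, Tap2 and Tapbp to the class I pathway. All 10 were found among the 23361 genes of the tables, and all 10 passed the filter (FPKM of 1 or more in any of the libraries), as did 10792 genes in all. The libraries were made from livers of C57BL/6J mice labelled male and 8 to 10 weeks old, with no transgene, which had been fasted for 12 h. The sham group had a laparotomy under chloral hydrate and its livers were taken 90 min later. In the warm ischemia (WI) group the portal triad to the left and median lobes was clamped for 90 min. In the ischemia followed by reperfusion (IR) group the same clamp was released and the livers were taken after 120 min of blood flow. The IR livers had longer after surgery than the sham livers, so reperfusion and the added time cannot be told apart. The study had 6 mice per group and the files hold 1 library per group, and whether RNA of several mice was pooled is not stated in the sources used here. No difference below therefore has a replicate check and none was tested for statistical significance.

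MHC class I molecules display peptides made inside the cell. Each is a heavy chain, such as the product of H2-K1 or H2-D1, held by beta-2-microglobulin (B2m), and nearly all nucleated cells carry it. The transporter of TAP1 and TAP2 brings peptides into the endoplasmic reticulum, where tapasin (Tapbp) helps to load them. MHC class II molecules display peptides from material the cell has taken up, and are made mainly by dendritic cells, B cells and macrophages. An alpha and a beta chain pair with the invariant chain (Cd74), which guards the peptide groove until the endosome. In the liver, Kupffer cells, dendritic cells and sinusoidal endothelial cells are the known antigen-presenting cells. Class II genes depend on the transactivator CIITA, and class I genes use its relative NLRC5.

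FPKM, the deposited unit, is the number of fragments per kilobase of transcript, scaled to the number of mapped fragments, so levels can be compared between genes. The bounds given in brackets are the 95% bounds deposited with each value. They reflect the counting model of Cuffdiff and not the variation between mice, and over all genes tested their median distance from the FPKM was 51.9% to 52.0% of it. Changes are differences of log2(FPKM + 1), which understates the change of low genes. The depth per gene is unknown because the files hold no counts. As a check of the tissue label, the hepatocyte genes Ttr, Apoa1, Cps1, Apob and Asgr1 had FPKM from 221 to 8799, while Alb is listed at 0 in all 3 libraries because Cuffdiff did not process its locus. As a check of the sex label, Xist, the RNA of the inactive X chromosome, had an FPKM of 18.9 in the sham library, 20.1 in WI and 1.29 in IR. The Y-linked genes Ddx3y, Eif2s3y, Kdm5d and Uty are listed at 0 in sham, and in WI all but Ddx3y (0.00849) are. In IR they ranged from 0.669 to 13.2. The sham and WI libraries thus go against the label of male mice. In every comparison with the IR library, a difference in sex cannot be told apart from reperfusion, and only WI against sham compares libraries alike in these genes.

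The promoters were read for short motifs in genes of both classes. RefSeq promoter windows around annotated starts of transcription (GRCm38.p6, the assembly that mm10 names) were available for 7 of the 10 genes. The stretches below are written on the gene's own strand and are aligned, so that each ends 5 bases after a CCAAT box in reverse (ATTGG, the Y box, bound by NF-Y). Capitals mark the Y box, the cyclic AMP element core TGACG, an X box core (AGNNACNGA), a kappa B site (GGGNNTTCC) or an interferon-stimulated element core (GAAANNGAA), each searched on both strands. In H2-Aa the TGACG matches of both strands overlap and are capitalised together. They lie at chr17:34287862-34287971 (H2-Aa, minus strand), chr17:34305708-34305817 (H2-Eb1, plus), chr17:34000354-34000463 (H2-K1, minus), chr17:35262918-35263027 (H2-D1, plus) and chr2:122147534-122147643 (B2m, plus).
H2-Aa: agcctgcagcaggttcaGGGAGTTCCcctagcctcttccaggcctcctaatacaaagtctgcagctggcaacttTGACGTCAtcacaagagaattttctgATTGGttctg
H2-Eb1: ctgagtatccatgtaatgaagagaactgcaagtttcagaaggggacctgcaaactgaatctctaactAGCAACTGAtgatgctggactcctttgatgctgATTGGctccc
H2-K1: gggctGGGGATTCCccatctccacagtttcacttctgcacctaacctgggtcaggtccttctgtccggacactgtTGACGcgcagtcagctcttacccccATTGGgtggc
H2-D1: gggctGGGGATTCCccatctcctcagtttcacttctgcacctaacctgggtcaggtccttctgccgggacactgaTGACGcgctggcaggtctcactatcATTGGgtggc
B2m: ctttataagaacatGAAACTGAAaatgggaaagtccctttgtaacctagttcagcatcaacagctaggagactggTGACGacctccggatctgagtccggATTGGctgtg

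In H2-K1, H2-D1 and B2m of class I the core TGACG began 25 bases before the Y box, and in H2-Aa of class II it began 26 bases before it. A pair of these letters 24 to 27 bases apart was present in 78 of 32851 promoter windows (0.237%), a spacing chosen after these sequences had been seen. In H2-Eb1 an X box core stood 33 bases before the Y box and TGACG was not matched. Singly the letters are common, since 37.4% of all windows held the Y box, 20.8% TGACG (a motif added after the sequences had been seen), 17.7% the X box core, 8.56% the interferon-stimulated core and 5.82% the kappa B site. A gamma-activated site (TTCNNNGAA), which 8.3% of windows held, was matched in none of the 7 genes. Further Y boxes on the other strand followed in H2-Eb1, H2-K1 and H2-D1, and X box cores were matched after the start in B2m and Tapbp. The stretches of H2-K1 and H2-D1 were identical at 99 of 110 positions, and those of H2-Aa and H2-Eb1 at 31. H2-K1 and H2-D1 are related class I genes, and the similarity of their transcripts was not tested. The counting may have divided reads between them and other class I genes. Tap1 held TGACG from position -86 and a Y box from -222, counted from its start, and Tapbp held Y boxes from -248 and -165. These are matches of letters, and binding was not measured.

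**Figure D1:**
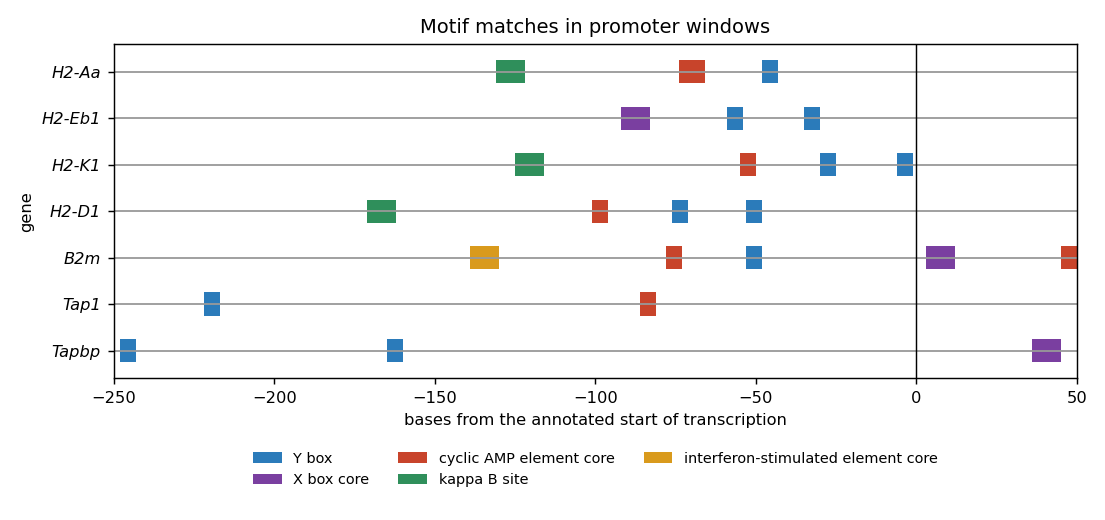
Matches of 5 motifs (coloured blocks, to scale) in the promoter windows of 7 genes, with the distance in bases from the annotated start of transcription (vertical line) on the horizontal axis. In H2-Aa, H2-K1, H2-D1 and B2m a cyclic AMP element core lies 25 or 26 bases before a Y box, and in H2-Eb1 an X box core lies 33 bases before it.

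All 4 class II genes were lowest in the IR library, at least 2-fold below both other libraries, and none of the 6 class I genes differed 2-fold on the deposited scale, where Tap1 and Tapbp were also lowest in IR. H2-Aa, the alpha chain of the A molecule, had an FPKM of 98.2 in sham (51.5 to 145), 79.4 in WI (42.1 to 117) and 31.6 in IR (16.9 to 46.2). H2-Ab1, its beta chain, had 77.4 in sham (40.8 to 114), 62.0 in WI (33.0 to 91.0) and 29.4 in IR (15.7 to 43.0). Both chains were slightly lower in WI than in sham and lower again in IR. H2-Eb1, the beta chain of the E molecule, had 45.4 in sham (24.1 to 66.8), 40.4 in WI (21.5 to 59.2) and 16.0 in IR (8.55 to 23.5). Its partner is missing in C57BL/6 mice, whose E alpha gene is defective, and H2-Ea-ps is listed at 0 in all 3 libraries. Cd74 had 181 in sham (86.3 to 275), 135 in WI (62.9 to 207) and 63.4 in IR (29.8 to 96.9), and was the highest of the class II genes in each library. The 3 H2 genes lie side by side on chromosome 17 of mm10, H2-Ab1 from 34263227 to 34269418, H2-Aa from 34282744 to 34287823 and H2-Eb1 from 34305867 to 34316674. Cd74 is on another chromosome (18, from 60803849 to 60812652) and had the same order of libraries.

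**Figure D2:**
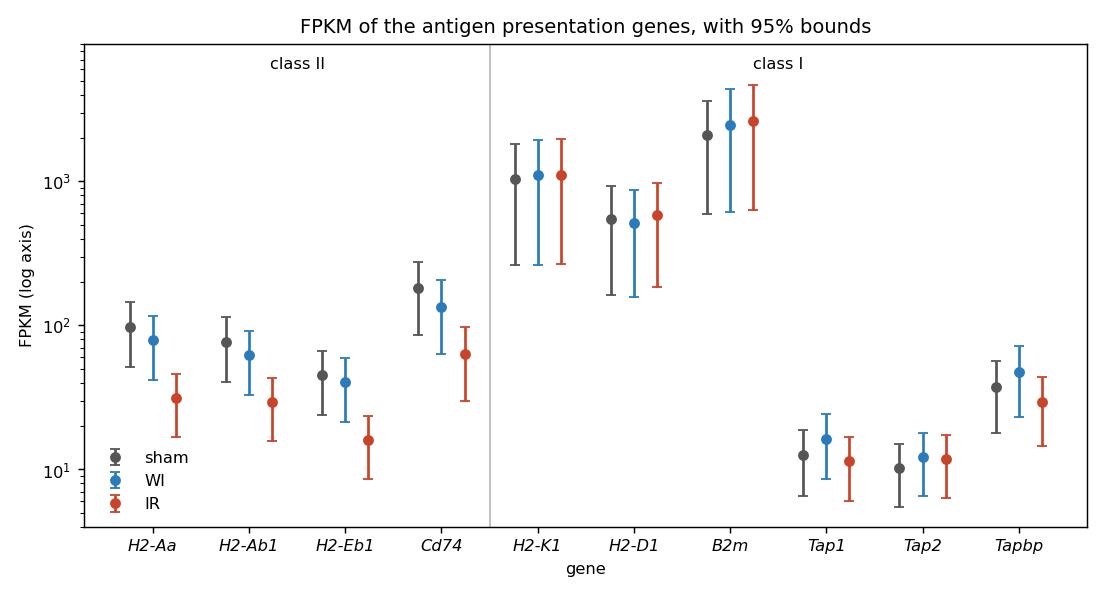
FPKM of the 10 genes on a log axis in the sham, WI and IR libraries (points, 1 library each), with the deposited 95% bounds as bars. The 4 class II genes on the left are lowest in IR, from 16.0 to 63.4, where the bars of H2-Aa and H2-Eb1 lie below those of sham and all bars overlap those of WI, while the bars of the 3 libraries overlap for each class I gene.

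H2-K1, a heavy chain that presents peptides to CD8 T cells, had an FPKM of 1044 in sham (264 to 1824), 1102 in WI (263 to 1941) and 1111 in IR (267 to 1955). H2-D1, the other such chain, had 546 in sham (163 to 929), 515 in WI (157 to 873) and 580 in IR (184 to 977). B2m had 2097 in sham (594 to 3600), 2484 in WI (617 to 4351) and 2638 in IR (630 to 4645). For these 3 surface chains the libraries lay close together, within bounds too wide to resolve a 2-fold difference. Tap1 had 12.7 in sham (6.56 to 18.8), 16.3 in WI (8.53 to 24.1) and 11.5 in IR (6.01 to 16.9). Tap2 had 10.3 in sham (5.48 to 15.1), 12.2 in WI (6.55 to 17.9) and 11.9 in IR (6.34 to 17.4). Tapbp had 37.3 in sham (17.8 to 56.7), 47.5 in WI (22.97 to 72.1) and 29.3 in IR (14.7 to 44.0). The peptide loading genes were thus all highest in the WI library, with overlapping bounds, and Tapbp had the largest difference of the class I genes between WI and IR. H2-K1 lies on chromosome 17 from 33996012 to 34000619, Tapbp from 33919478 to 33929290, Tap1 from 34187556 to 34197225, Tap2 from 34204479 to 34216321 and H2-D1 from 35263094 to 35267497. B2m lies on chromosome 2 from 122147687 to 122153082.

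Within each library the order of levels was nearly fixed. B2m was highest, followed by H2-K1, H2-D1, Cd74, H2-Aa and H2-Ab1 in all 3 libraries. Tap1 and Tap2 were lowest, with Tap2 above Tap1 only in IR. H2-Eb1 was above Tapbp in sham and below it in WI and IR. The bounds of neighbours in this order overlapped in every case but 1, H2-D1 and Cd74 in the IR library.

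WI against sham compares ischemia without reperfusion with the sham operation, with 1 library each, so ischemia and differences between animals cannot be told apart. The 4 class II genes were lower in WI by 0.17 (H2-Eb1) to 0.42 (Cd74) on the log2(FPKM + 1) scale, with a median change of -0.31. The 6 class I genes had a median change of 0.24, and 5 of them were higher in WI, up to 0.34 for Tap1 and Tapbp, with H2-D1 at -0.08. The median of all 10792 genes was 0.02. None of the 10 genes changed 2-fold in either direction, where 0.751% of all genes were higher and 1.1% lower. The bounds overlapped for all 10, where 0.195% of all genes had bounds apart and higher and 0.482% apart and lower. The steps of WI against sham were small against the bounds for both classes.

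Between IR and WI, the comparison that adds reperfusion, all 4 class II genes were at least 2-fold lower in FPKM + 1, and 1.43% of all genes were. The share of all genes was 3.57% with a pseudocount of 0.1, 4.03% with none and 11.0% as TPM. H2-Aa was lower by 1.30 on the log2 scale, H2-Eb1 by 1.28, Cd74 by 1.08 and H2-Ab1 by 1.05. Only 0.528% of genes had a lower change than H2-Aa and 1.15% a lower change than H2-Ab1, so the 4 sat together near the bottom of the distribution. The median change of class II was -1.18, against 0.03 for all genes and -0.02 for class I. None of the class I genes reached 2-fold, and they ran from -0.68 for Tapbp and -0.47 for Tap1 to 0.17 for H2-D1. None of the 10 was 2-fold higher, as 5.78% of all genes were. The bounds of each of the 10 genes overlapped, where 0.398% of all genes had bounds apart and lower and 3.22% apart and higher. For H2-Aa the overlap was narrow, from the lower bound of 42.1 in WI to the upper bound of 46.2 in IR.

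Between IR and sham all 4 class II genes were again at least 2-fold lower, beside 2.15% of all genes, or 14.4% as TPM. H2-Aa was lower by 1.61 on the log2 scale, Cd74 by 1.497, H2-Eb1 by 1.45 and H2-Ab1 by 1.37, and the FPKM in sham was 3.11, 2.85, 2.83 and 2.63 times that in IR. H2-Aa and H2-Eb1 had bounds that did not overlap, which 1.12% of all genes had in that direction. For H2-Ab1 and Cd74 the bounds overlapped by a small margin. The median change was -1.47 for class II, 0.09 for class I and 0.05 for all genes. The class I genes ranged from -0.34 (Tapbp) to 0.33 (B2m) as deposited, and all 6 were lower in IR when rescaled to a common sum. None of the 10 was 2-fold higher or had bounds apart and higher, where 5.35% and 2.7% of all genes did. The 3 comparisons share libraries, so they are not independent of each other.

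**Figure D3:**
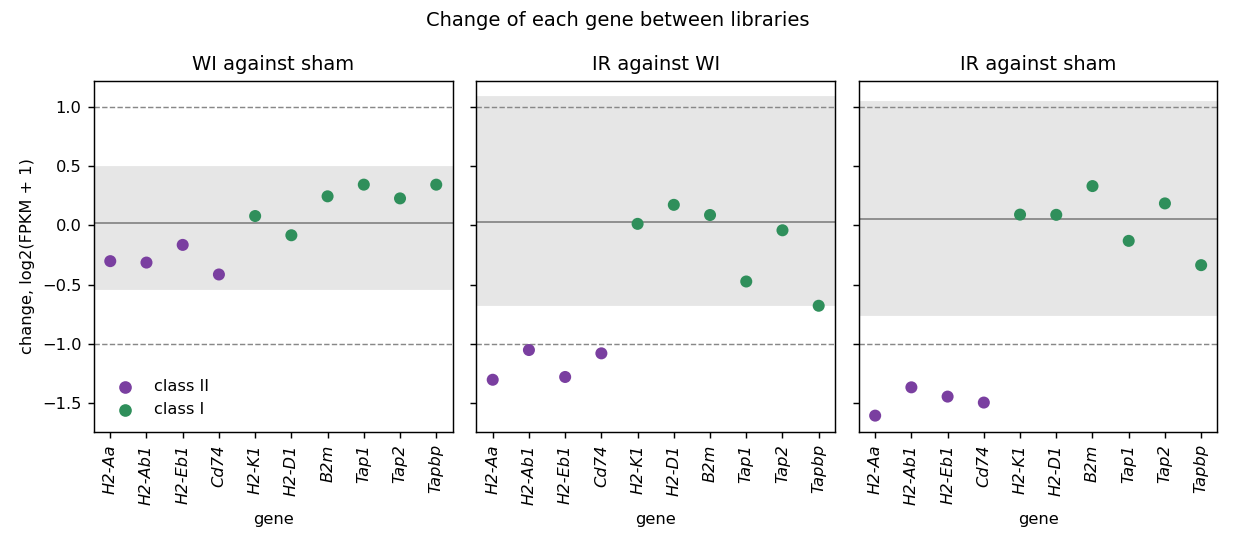
Change of each gene on the log2(FPKM + 1) scale in the 3 comparisons (points, class II in purple and class I in green). Grey bands span the middle 90% of all 10792 genes and dashed lines mark 2-fold. The class II points lie between -1.61 and -1.05 in the comparisons with IR, under the band, and the class I points lie between -0.68 and 0.33, all of them lower than 0 in IR when libraries are rescaled to a common sum.

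The class I median minus the class II median was 0.54 for WI against sham, 1.17 for IR against WI and 1.56 for IR against sham. As a ratio within each library, the summed FPKM of the 4 class II genes was 10.7% of that of the 6 class I genes in sham, 7.59% in WI and 3.20% in IR. The proportions inside each class varied less. H2-Aa over H2-Ab1 was 1.27 in sham, 1.28 in WI and 1.07 in IR. Cd74 over H2-Aa was 1.84, 1.70 and 2.01 in the same order, and B2m over H2-K1 was 2.01, 2.25 and 2.37. The direction of class I in IR does depend on scaling. FPKM summed to 712423 in IR against 475754 in sham and 487912 in WI. These sums miss the loci listed at 0 for too many fragments, 1 gene in sham, 1 in WI and 7 in IR. After rescaling to a common sum (TPM) all 6 class I genes were lower in IR than in sham, with a median of -0.49. The median of all genes on the TPM scale was -0.45. On that scale Tap1 and Tapbp passed 2-fold lower between IR and WI. Relative to the median of all genes, class II stood at -1.53 between IR and sham as deposited and at -1.60 as TPM, and class I at 0.03 and -0.04.

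Other genes of the class II pathway were read from a list of 14, of which 9 passed the filter. At least 2-fold lower in FPKM + 1 were 1 of the 9 in IR against WI, beside 1.43% of all genes, and 2 in IR against sham, beside 2.15%. None was 2-fold higher in any comparison, where 0.751% (WI against sham), 5.78% (IR against WI) and 5.35% (IR against sham) of all genes were. H2-DMb1, a chain of the peptide exchange factor H2-DM, had an FPKM of 8.05 in sham (3.90 to 12.2), 7.51 in WI and 2.40 in IR (0.889 to 3.905), a change of -1.33 from WI to IR. H2-DMa, its partner chain, had 4.98, 5.41 and 2.36. Ctss, the protease cathepsin S that trims the invariant chain, had 99.9 in sham, 58.9 in WI and 34.4 in IR, so its level was already lower in WI. Lgmn, another endosomal protease, had 64.9, 40.6 and 57.6 and Ifi30, a thiol reductase of the same compartment, had 31.5, 22.8 and 25.0, without the low value in IR. The factors Rfx5, Rfxank and Rfxap, which bind the X box, had FPKM from 1.26 to 3.62, with changes between -0.31 and 0.42. The list median was -0.31 for IR against WI and -0.30 for IR against sham, between that of class II and that of all genes.

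Ciita, the class II transactivator, lay under the filter, with an FPKM of 0.437 in sham (0.152 to 0.721), 0.491 in WI (0.138 to 0.844) and 0.0718 in IR (0.00689 to 0.137). The IR bounds lay below those of both other libraries, and the FPKM in WI was 6.84 times that in IR. H2-Oa and H2-Ob, which restrain H2-DM, were also under the filter and lowest in IR, at 0.193 and 0.227. Nlrc5, which serves class I, had 2.48 in sham (1.30 to 3.66), 3.12 in WI (1.66 to 4.58) and 2.13 in IR (1.10 to 3.16). The level of Ciita was close to 0 in all 3 libraries, and its bounds in WI and sham overlapped. Its part in the class II values was not tested.

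Of 20 other genes of the class I pathway, 18 passed the filter and none changed 2-fold in FPKM + 1 in any comparison. Over all genes, 0.751% were 2-fold higher and 1.1% lower for WI against sham, and 5.78% and 1.43% for IR against WI. For IR against sham the shares were 5.35% and 2.15%. At such shares, finding none among 18 genes does not set the list apart. The list median was 0.27 for WI against sham, -0.29 for IR against WI and -0.01 for IR against sham. The immunoproteasome subunits were highest in WI, with Psmb10 at 29.3 in sham, 57.0 in WI and 43.0 in IR, Psmb9 at 28.7, 51.8 and 30.3, and Psmb8 at 45.0, 54.3 and 38.6. Of the chaperones of the loading complex, Calr had 147, 270.5 and 244 and Pdia3 had 97.9, 150.1 and 121. These genes were picked after their values were seen, and their bounds overlapped. Over the list, 13 of the 18 genes were higher in WI than in sham and 14 were lower in IR than in WI. H2-Q10, a secreted class I chain of the liver, had 1041 in sham, 1213 in WI and 1404 in IR, a level like that of H2-K1. H2-T23, a nonclassical chain, had 236, 223 and 231. Erap1, which trims peptides, had 29.9, 30.4 and 15.7 and was the lowest of the list between IR and WI, with a change of -0.91. Class I genes of the Q and T regions are related copies that may share reads, so their values are uncertain.

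Interferon gamma is the classic inducer of both classes. Ifng itself was near 0, at 0.0362 in sham, 0.0987 in WI and 0.135 in IR, with a lower bound of 0 in each. Irf1, a transcription factor of class I and TAP genes, had 8.06, 17.0 and 15.3, so it was higher in both than in sham, with overlapping bounds. Socs1, an inhibitor of this pathway, had 0.424, 0.400 and 4.49, with the IR bounds (1.78 to 7.19) above the others. Jak1, a kinase of the receptor, had 20.7, 20.2 and 38.8, and Irf2 had 13.8, 14.6 and 16.6. The receptor chain Ifngr1 had 14.5, 9.73 and 8.09, while the other chain, Ifngr2, had 9.81, 8.36 and 12.2 and was highest in IR. Of the genes of this list reported here that passed the filter, Socs1 was past 2-fold in FPKM + 1 in both comparisons with IR. Over all genes, 5.78% were 2-fold higher in IR against WI and 5.35% in IR against sham. Bounds were apart and higher for 3.22% and 2.7% of all genes in the same order. Irf1 in WI was 2.11 times its sham level in FPKM and just under 2-fold in FPKM + 1, with a change of 0.99.

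**Figure D4:**
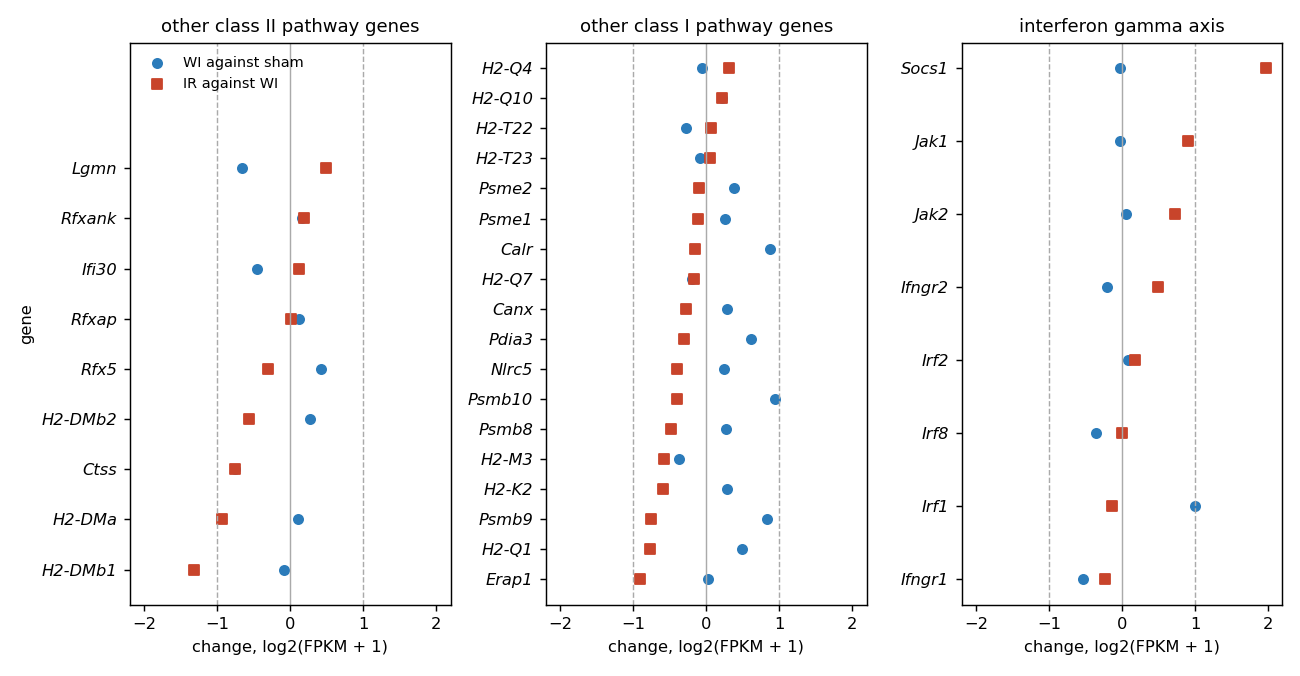
Change on the log2(FPKM + 1) scale of the other pathway genes that passed the filter, for WI against sham (blue circles) and IR against WI (red squares), sorted by the latter, with dashed lines at 2-fold. H2-DMb1 is at the bottom of the class II list with -1.33 from WI to IR, and most class I pathway genes lie to the right of 0 in WI and to the left in IR.

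Marker lists of other cell types also differed between the libraries. In bulk tissue, fewer cells of a type and less RNA per cell cannot be told apart. Of 8 Kupffer cell and macrophage markers found, all 8 were lower in WI than in sham and 7 were lower in IR than in sham, 6 of them at least 2-fold and with bounds apart, beside 2.15% and 1.12% of all genes. Their summed FPKM was 497 in sham, 254 in WI and 165 in IR, and none was at 0. Cd5l, a secreted macrophage protein, had 203, 90.4 and 59.0. Vsig4, a complement receptor of Kupffer cells, had 67.8, 35.1 and 12.4, and Clec4f, a lectin found on them, had 115, 65.3 and 32.7. Cd68 (18.5, 12.3 and 18.5) and Marco (20.9, 12.6 and 25.3) did not share the low value in IR. The summed class II level was 0.808 times that of these markers in sham, 1.25 times in WI and 0.850 times in IR. Over the summed dendritic cell markers it was 87.8, 85.5 and 65.6 times in the same order. Over the summed B cell markers it was 70.6, 103 and 61.8 times. The course of class II relative to markers thus differed with the list used.

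The dendritic cell and B cell lists were much lower. The 8 dendritic cell markers summed to 4.57 in sham, 3.71 in WI and 2.14 in IR, with 7 lower in IR than in sham. The 6 B cell markers summed to 5.68, 3.09 and 2.27, all 6 lower in each later library. The highest dendritic cell markers were Zbtb46 (1.53, 1.19 and 0.511) and Clec9a (0.928, 0.662 and 0.347), and the highest B cell markers were Cd79b (2.15, 1.13 and 0.842) and Cd79a (1.59, 0.912 and 0.734). No marker was at 0, but only 1 of the 8 dendritic cell markers and 2 of the 6 B cell markers passed the filter. Of the 10792 genes that passed it, 4921 were lower in IR than in sham. The bounds of each marker of both lists overlapped between IR and sham. Between IR and WI the bounds of the dendritic cell marker Xcr1 were apart (0.337 in WI and 0.0458 in IR), as were those of 0.398% of all genes in that direction. The sums of both lists were lowest in IR, as that of class II was. The 6 endothelial markers summed to 124, 88.2 and 109, with 3 lower and 3 higher in IR than in WI. Without Lyve1, a choice made after the values were seen, they summed to 112, 85.5 and 76.0. Most of that sum was Clec4g at 70.7, 55.9 and 41.4. Kdr was lowest in IR (4.80), while Lyve1 (33.4) and Cdh5 (12.5, 8.15 and 16.9) were highest there. Pecam1 had 10.2, 6.52 and 7.74. The 6 neutrophil markers found summed to 25.3, 19.3 and 460, led by S100a8 at 212 and S100a9 at 204 in IR, with Mpo listed at 0 there. The part of these cell types in the class II values was not tested.

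**Figure D5:**
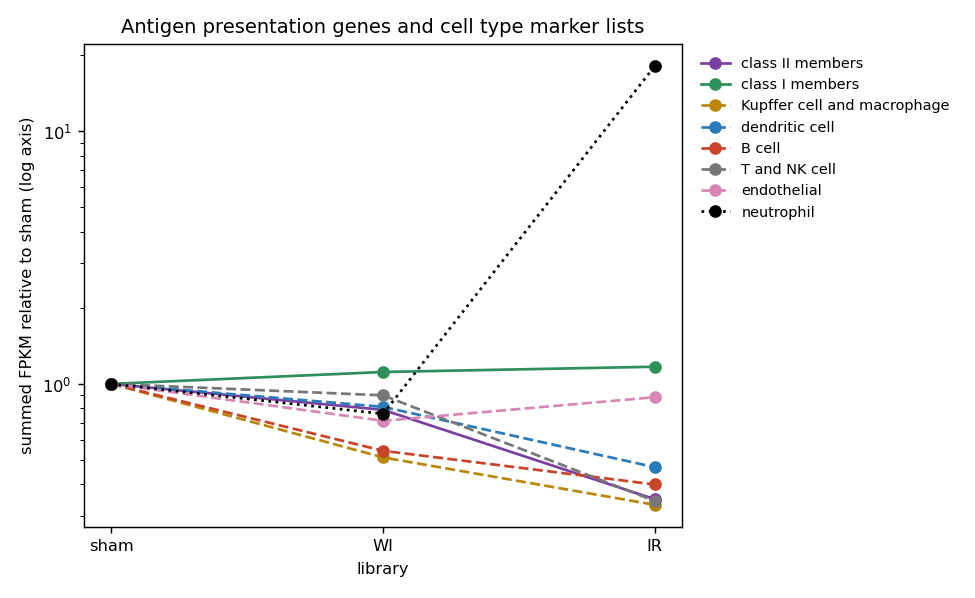
Summed FPKM of the class II genes, the class I genes and 6 marker lists in the WI and IR libraries relative to sham, on a log axis, 1 library per point. Class II ends near the Kupffer cell, T and NK cell and B cell lists in IR, class I stays above 1 on this scale but is lower in IR when libraries are rescaled to a common sum, and the neutrophil list lies far above the rest.

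The course of class II was also compared with that of single genes. Among 4564 other genes whose FPKM reached 10 in any library and was above 0 in all, the nearest to the median class II course over the 3 libraries were Mir22hg, Cyp17a1, Il18bp, Glt1d1 and Hlf, at distances from 0.183 to 0.197 on the log2 scale. The class II genes themselves stood 0.159 to 0.187 from that median, and 3 other genes were as near as the farthest of them. The median was taken from these same class II genes, so their own nearness to it is partly built in. Il18bp, the binding protein of interleukin 18, had 32.8 in sham, 23.9 in WI and 10.9 in IR. Cyp17a1, a steroid hydroxylase, had 82.6, 62.7 and 30.2. With 3 libraries many genes can share a course, so this likeness is a description of levels alone.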

How the data were processed

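The authors mapped read pairs to mm10 with TopHat2 2.0.9 and computed gene FPKM with Cuffdiff of Cufflinks 2.0.2 at default parameters, as the methods and the submitters' processing notes give them. The deposited tables hold FPKM, its lower and upper 95% bounds and a status for each gene, with 1 library per group. The status of all 10 genes was OK in each library. Cuffdiff lists FPKM as 0 where a locus holds too many fragments (1 gene in sham, 1 in WI, 7 in IR). No gene was removed for this, so such zeros entered the summed FPKM and, for genes passing the filter, the background shares. Locus starts in the files count from 0, so gene positions were taken from RefSeq for GRCm38.p6, counted from 1. A pseudocount of 1 was added before taking log2, and genes reaching an FPKM of 1 in any library formed the background. A gene was counted as changed at 2-fold in FPKM + 1, and bounds as apart when they did not overlap. No p-value was computed. The genes named are the 10 genes, those of the pathway lists past 2-fold, set regulators, up to 3 further genes per pathway list and 2 per marker list with the highest FPKM, and the 5 nearest patterns. H2-DMa, H2-Oa, H2-Ob, Rfx5, Rfxank, Rfxap, Psmb8, Psmb9, Psmb10, Pdia3, Erap1, Ifngr2, Cd80, Icosl, Xcr1, Vsig4, Cd68, Marco, Kdr, Cdh5 and Pecam1 were chosen after their values were seen. The members and lists were chosen with earlier results of these data known. Alternatives covered the pseudocount, the fold, the filter, scaling (TPM, median ratio), the mean, and H2-K1 and H2-D1 as 1 sum. The code was tested on simulated data. Python 3.11.15, numpy 2.4.6 and pandas 2.3.3 were used. H2-Ab1, Tap2 and Cd74 promoters and MicroRNA profiles were not used here. A gene left out of the interferon list is not reported here.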

Additional observations from a re-analysis of the deposited data

How the results depend on the processing

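The lower class II level in IR kept its direction in all settings tried, which were pseudocounts of 0.1 and none, TPM, median-ratio scaling and the mean in place of the median. Its median change lay between -1.73 and -1.18 for IR against WI and between -2.06 and -1.47 for IR against sham. The class I median minus the class II median lay between 1.03 and 1.20 for IR against WI, between 1.52 and 1.60 for IR against sham, and between 0.49 and 0.56 for WI against sham, with H2-K1 and H2-D1 summed included. The class I median changed sign with TPM, from 0.09 to -0.49 for IR against sham. The 4 genes counted as 2-fold lower became 0 at a threshold of 4-fold, both for IR against WI and for IR against sham. At TPM the share of all genes at least 2-fold lower was 11.0% for IR against WI and 14.4% for IR against sham, so the background of the class II count is higher on that scale. No paired analysis was possible because each group has 1 library. Leaving out replicates and a check within batches were not possible with 1 library per group, and the difference in Xist and Y-linked genes coincides with the IR library. Wide bounds limit the class I chains most, where they reach 76.1% of the FPKM in IR.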

Other observations

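Genes that accompany antigen presentation were read from 2 further lists. T cells need a costimulatory signal beside the MHC, and the ligands for it did not share the low class II level in IR. Cd86, a ligand of CD28, had an FPKM of 3.01 in sham, 1.70 in WI and 2.85 in IR, and Cd80, the other such ligand, had 0.510, 0.179 and 0.682. Cd274, the inhibitory ligand PD-L1, had 1.87 (0.828 to 2.91), 2.76 (1.31 to 4.21) and 4.57 (2.34 to 6.80), highest in IR. All 5 genes of this list were higher in IR than in WI. None was 2-fold higher in FPKM + 1, as 5.78% of all genes were for IR against WI. In FPKM alone Cd80 was 3.80 times and Icosl 2.51 times its WI level, both from values under 1. The 8 markers of T cells and NK cells, which read MHC molecules, summed to 7.52 in sham, 6.78 in WI and 2.58 in IR. All 8 were lower in IR than in sham, but only 2 of them passed the filter. Of the 10792 genes that passed it, 4921 were lower in IR than in sham. Cd3g had 1.70, 1.75 and 0.519, and Nkg7 had 2.58, 2.23 and 0.851. Cd40, the receptor for T cell help, had 0.672, 0.578 and 1.10. The bounds of all genes of both lists overlapped between the libraries, and their differences have no replicate check.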
